A study of Mus musculus with 12 samples.

Results

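Genes that make, sense and move sterols and fatty acids were followed in follicular (FO) B cells of mouse spleen. The 37 genes were taken by name, for their roles in cholesterol synthesis, in its control by SREBP, in sterol uptake and efflux, and in fatty acid synthesis, elongation and desaturation. The rule used no measured value. A row was present for 36 of them among the 22561 genes of the count table, whereas Ch25h, the enzyme of 25-hydroxycholesterol synthesis, was not analysed here. Of the 36 genes, 31 had enough counts to be tested, among 9431 genes tested in all.

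The cells came from 10-week-old C57BL6 mice and carried no transgene or deletion named in the labels. They were sorted by flow cytometry as B220 high, CD23 positive cells with intermediate CD21. There were 4 groups of 3 samples: Unstimulated cells and, after 12 h of stimulation, cells given IFNα, CpG or CpG + IFNα. IFNα is a type I interferon, and CpG is a synthetic oligodeoxynucleotide sensed by TLR9. By its design text, the series describes expression in FO B cells given CpG + IFNα, a combination that drives them towards plasma cells. The sources do not state whether Unstimulated cells were also kept in culture for 12 h, so that stimulation and time in culture cannot be told apart in comparisons with them. They also do not state whether the 3 samples of a group came from separate mice, so that p-values measure the spread between these samples, which may be technical.

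Cells build cholesterol from acetyl-CoA through mevalonate, squalene and lanosterol. When sterol in the endoplasmic reticulum falls, SCAP carries the SREBP transcription factors to the Golgi for cleavage, and the freed factors switch on genes of synthesis and uptake, whereas INSIG proteins hold SCAP back when sterol is plentiful. Oxysterols activate the LXR receptors, which switch on efflux genes such as Abca1 and Abcg1, the ubiquitin ligase Mylip that limits lipoprotein uptake, and lipogenic genes such as Srebf1 and Scd1. Type I interferon is known to lower sterol synthesis in macrophages, and activated lymphocytes are known to raise it before they divide.

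Depth was 922450 to 2923865 UMI counts per sample, and replicates of a group differed by more than counting noise, with a chi-square per degree of freedom of 1.9 to 6.31. The highest values involved replicate 2 of IFNα (4.5 and 6) and of CpG + IFNα (4.48 and 6.31), the deepest library of its group in each case. Values below are normalized counts scaled to a common total (CPM) in the order of replicates 1, 2 and 3. They are 3′ end counts, which do not grow with transcript length. Of the 4 follicular B cell markers tested, not all are reported here, and those given do not describe the whole list. Fcer2a, the gene of CD23, Cr2 and Ighd fell by 5.84, 3.61 and 1.60 on the log2 scale with CpG. With IFNα alone, Fcer2a and Cr2 fell by 2.34 and 2.38, and in CpG + IFNα against CpG they fell by 1.41 and 1.28, whereas Ighd was not called in either comparison (edgeR, adjusted p for the called values 3.89e-23 to 0.000745). The B cell marker Ms4a1, the gene of CD20, was at 1669, 1898 and 1868 CPM in Unstimulated, 1993, 1743 and 1998 in IFNα, 303, 310.1 and 339 in CpG and 280.4, 317 and 327 in CpG + IFNα samples. The 5 marginal zone B cell markers summed to 285 to 302 CPM in Unstimulated, 125 to 153 in IFNα, 60.8 to 73.4 in CpG and 42 to 51.9 in CpG + IFNα samples. The 8 macrophage and monocyte markers summed to 13.6 to 51.3, 8.07 to 17.6, 4.91 to 7.49 and 5.17 to 7.19 CPM in Unstimulated, IFNα, CpG and CpG + IFNα samples, with Lyz2 at 4, 9 and 3 counts in Unstimulated cells and at 0 in every stimulated sample. T cell and neutrophil markers summed to at most 1.82 and 1.07 CPM, and the 3 erythroid markers summed to 1.03 to 271 CPM. The 4 plasmacytoid dendritic cell markers summed to 247 to 310 CPM in Unstimulated, 427 to 448 in IFNα, 153 to 165 in CpG and 142 to 229 in CpG + IFNα samples. Nearly all of that sum was Tcf4, which B cells also express, and Siglech and Klk1, which define those cells, had no count in any sample. In bulk samples, fewer cells of a type and less RNA per cell cannot be told apart.

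A gene is called changed at a Benjamini-Hochberg adjusted p under 0.1 in edgeR's quasi-likelihood test across all 9431 genes, and a DEG when it also changed by more than 2-fold, that is by more than 1 on the log2 scale. With IFNα alone, 13 of the 31 genes rose and 5 fell against Unstimulated cells, beside 12.4% and 11.9% of all genes tested. With CpG alone, 14 rose and 7 fell (36.5% and 38.4% of all genes), and with CpG + IFNα, 11 rose and 12 fell (37.6% and 38.8%). CpG + IFNα against CpG, the comparison of the cells driven towards plasma cells with those that are not, had 0 genes that rose and 10 that fell (6.54% and 8.83%). The count that rose was also 0 at an unadjusted p under 0.05 and with DESeq2, where 14 and 4 genes fell, respectively. Shares of all genes called come from edgeR at an adjusted p under 0.1, here and below. None was computed for DESeq2 or an unadjusted p. Of the 10, Mvd, Elovl6, Scd1 and Scd2 were DEGs. CpG + IFNα against IFNα had 3 genes that rose and 22 that fell (36.1% and 39.8%).

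The DEGs among the 31 genes numbered 8 up and 2 down with IFNα (4.56% and 4.07% of all genes), 7 up and 5 down with CpG (20.1% and 25.5%), 4 up and 7 down with CpG + IFNα (20.3% and 25.6%), 0 up and 4 down against CpG (2.95% and 2.01%) and 2 up and 13 down against IFNα (18.7% and 25.5%).

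Over the 31 genes, the median log2 fold change was 0.36 for IFNα, 0.24 for CpG and −0.12 for CpG + IFNα against Unstimulated cells, −0.32 for CpG + IFNα against CpG and −0.75 for CpG + IFNα against IFNα. The medians over all genes tested were −0.001, −0.028, −0.014, −0.038 and −0.070. Several of these comparisons share a group of samples, so that their counts are not independent of each other. The interaction takes the IFNα effect in the presence of CpG and subtracts that in its absence. The effect in its absence is taken against Unstimulated cells, so that time in culture and stimulation cannot be told apart in the interaction either. The interaction was above 0 and changed in 1 of the 31 genes and below 0 and changed in 18, beside 5.84% and 7.58% of all genes. DEGs numbered 1 and 14, beside 3.09% and 3.17%. Its median over the 31 genes was −0.89, beside −0.052 over all genes.

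**Figure D1:**
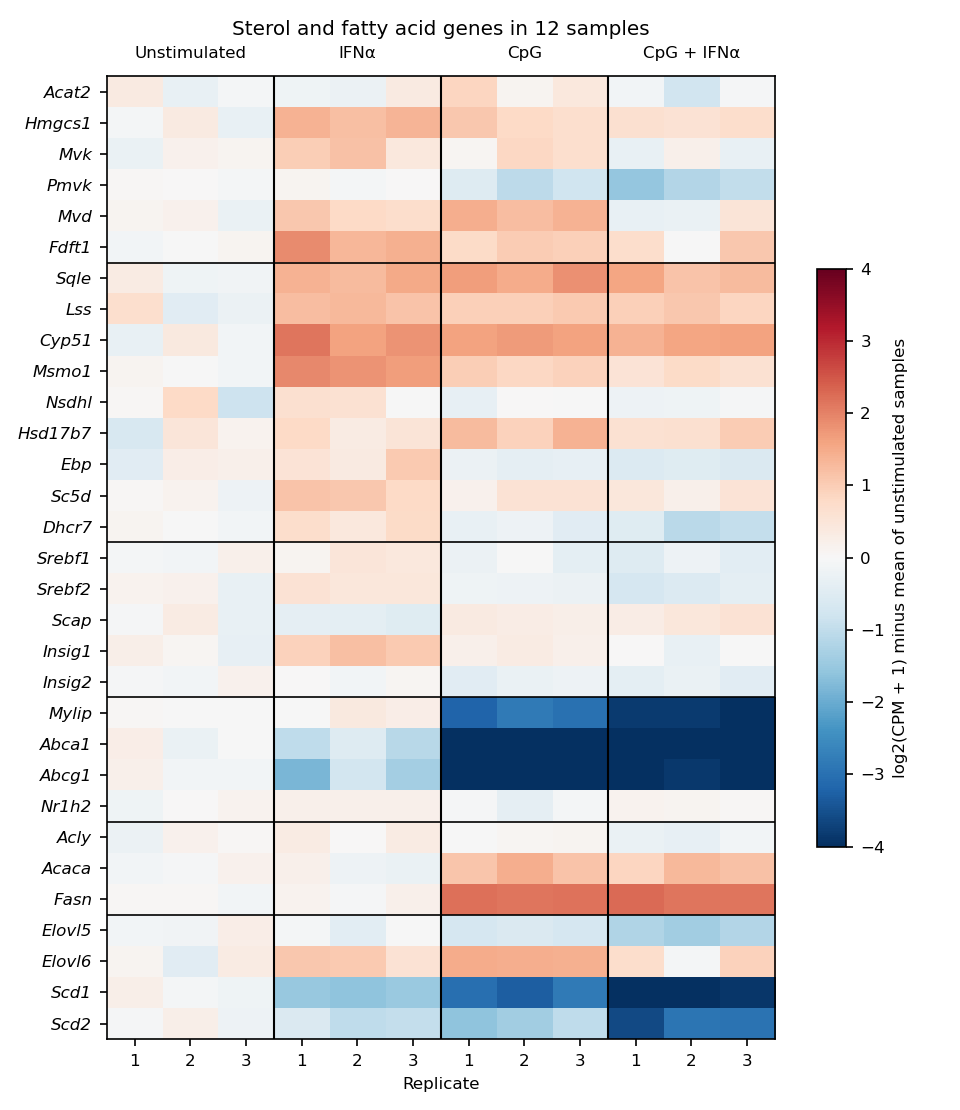
Colours give log2(CPM + 1) of each of the 31 tested genes (rows, in their role groups between lines) in each of the 12 samples (columns) minus the mean of the 3 Unstimulated samples, with differences beyond 4 in either direction drawn in the end colours. Most of the upper rows, the cholesterol synthesis genes, are reddest under IFNα, Abca1, Abcg1, Mylip and Scd1 are blue in all 6 samples with CpG, and Fasn is red in those 6 samples.

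Most enzymes of cholesterol synthesis rose with either stimulus alone. Of the 15 tested, 11 rose and 0 fell with IFNα (12.4% and 11.9% of all genes rose and fell), with a median log2 fold change of 0.94, and 10 rose and 1, Pmvk, fell with CpG (36.5% and 38.4% of all genes), with a median of 0.86. With DESeq2, 8 rose in each of these comparisons. With both stimuli, 8 rose and 3 fell (37.6% and 38.8% of all genes), with a median of 0.41. The mean level was highest under IFNα for 11 of the 15 genes and under CpG for 4, and lowest in Unstimulated cells for 9 and in CpG + IFNα cells for 6. Against CpG alone, CpG + IFNα lowered 3 of them (8.83% of all genes), and 1 of them with DESeq2. All 15 log2 fold changes were below 0, or 14 of 15 when ribosomal RNA and mitochondrial genes were left out before scaling.

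Promoters of these enzymes are shown because SREBP and its partner NF-Y bind such regions, and windows from 250 bases before to 50 bases after the start were taken from RefSeq on GRCm38.p6. At least 1 window was found for 30 of the 37 genes (38 windows). The CCAAT box, the letters CCAAT on either strand as bound by NF-Y, was present in 14 of the 15 cholesterol synthesis genes with a window (93.3%), which include the untested Idi1 and Tm7sf2 but not Fdft1 and Sqle, and in 22 of the 30 genes (73.3%), beside 41.1% of 27025 genes with a window and 43.1% of the 7234 of them that were tested. Windows of 30 bases upstream of the start are given 5′ to 3′ along the gene, with the match in capitals. They are those of Cyp51 and Msmo1, the genes with the largest rise under IFNα, of Mvd, the synthesis gene with the largest fall under CpG + IFNα against CpG, and of the feedback gene Insig1.
Cyp51, chr5:4104709-4104738, minus strand: cgctgtccgccaCCAATctggtcctgagat
Msmo1, chr8:64733616-64733645, minus strand: gagtggggcggaCCAATtacgacaggcgag
Mvd, chr8:122443432-122443461, minus strand: ccggccagcgggCCAATcatatggcagcgc
Insig1, chr5:28071184-28071213, plus strand: cgccctcctcccATTGGctccggcggcctc
ATTGG is the box read on the other strand.

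The letters TCACNCCAC, a form of the sterol regulatory element bound by SREBP, were found on either strand in 1 of the 30 genes, Hmgcs1, beside 1.44% of the 27025 genes. The E-box CACGTG, a palindrome that SREBP1 and other factors can bind, was in 7 of 30 (23.3%), Insig1, Hsd17b7, Dhcr7 and Sc5d among them, beside 8.09% of all genes and 13.0% of those tested. The interferon-stimulated response element, searched on either strand, was in 1 of 30, Ebp, beside 3.99%, and the LXR element, a direct repeat spaced by 4 bases (DR4), was in 0 of 30, beside 0.0148%. The matches in Hmgcs1, in Insig1 for the E-box, and in Ebp, where the element lies on the other strand, read as follows.
Hmgcs1, chr13:119690204-119690233, plus strand: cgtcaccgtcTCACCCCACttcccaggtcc
Insig1, chr5:28071299-28071328, plus strand: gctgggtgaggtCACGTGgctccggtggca
Ebp, chrX:8193732-8193761, minus strand: taaaggtttgGAAACTGAAAatcgtggaga
These matches describe letters in the windows and were not measured as binding in these cells.

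Among the enzymes from acetyl-CoA to squalene, 4 of 6 tested rose and 0 fell with IFNα (12.4% and 11.9% of all genes). Hmgcs1, which makes HMG-CoA, was at 40.0, 54.6 and 34.4 CPM in Unstimulated cells, 113, 97.9 and 109 with IFNα, 90.9, 73.4 and 67.4 with CpG, and 67.1, 63.1 and 68.9 with both. All 9 stimulated samples lay above the Unstimulated ones, and the IFNα samples lay above all others. Its log2 fold change was 1.32 ± 0.17 (SE) for IFNα (adjusted p = 1.58e-07), 0.86 ± 0.17 for CpG (adjusted p = 3.99e-05) and −0.22 ± 0.14 for CpG + IFNα against CpG (adjusted p = 0.376), and the interaction was −1.54 ± 0.22 (adjusted p = 8.94e-06).

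Fdft1, squalene synthase, was at 11.8, 12.8 and 14.1 CPM in Unstimulated cells, 50.5, 34.1 and 36.6 with IFNα, 22.7, 27.1 and 26.0 with CpG and 21.8, 12.8 and 28.3 with both. The IFNα samples were again the highest, and the CpG + IFNα samples overlapped those of CpG. The log2 fold change was 1.60 ± 0.28 for IFNα (adjusted p = 4.37e-05) and 0.96 ± 0.29 for CpG (adjusted p = 0.00424), with an interaction of −1.92 ± 0.37 (adjusted p = 0.000496).

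Mvd, which decarboxylates mevalonate diphosphate, was at 8.19, 8.56 and 6.18 CPM in Unstimulated cells, 17.2, 14 and 13.0 with IFNα, 22.7, 19.2 and 21.5 with CpG and 6.0, 6.21 and 11.3 with both. Each stimulus alone was above the Unstimulated cells in all samples, whereas the combination overlapped them. Mvd was the only cholesterol synthesis gene among the 15 that was a DEG in CpG + IFNα against CpG, where it fell by 1.45 on the log2 scale (SE 0.27, adjusted p = 0.000144), a call lost when counts were thinned to the lowest depth (adjusted p = 0.11). It rose by 1.47 ± 0.32 with CpG (adjusted p = 0.000121) and by 0.93 ± 0.35 with IFNα (adjusted p = 0.0595), and its interaction was −2.38 ± 0.44 (adjusted p = 0.000324). The IFNα call was lost with DESeq2, with no filter on low counts, and without Unstimulated replicate 1 (0.99, adjusted p = 0.103), Unstimulated replicate 3 (0.76, 0.220) or IFNα replicate 1 (0.83, 0.149).

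Mvk, mevalonate kinase, was at 10.0, 13.9 and 13.2 CPM in Unstimulated cells, 25.2, 28.6 and 16.8 with IFNα, 12.9, 22.8 and 20 with CpG and 9.82, 14.1 and 9.76 with both. The IFNα samples did not overlap the Unstimulated ones, but CpG and CpG + IFNα samples overlapped each other. It rose by 0.94 ± 0.30 with IFNα (adjusted p = 0.0249), and the interaction was −1.61 ± 0.40 (adjusted p = 0.0077). Its fall of 0.68 in CpG + IFNα against CpG (SE 0.26, adjusted p = 0.0982) lost its call under 13 alternatives, and over all alternatives adjusted p ran from 0.039 to 0.358. The IFNα call was lost with DESeq2, with counts thinned to the lowest depth, and without IFNα replicate 2 (0.74, adjusted p = 0.134) or Unstimulated replicate 1 (0.81, 0.106). With CpG, Mvk rose by 0.58 ± 0.31 (adjusted p = 0.0869), although CpG and Unstimulated samples overlapped. That call was lost without Unstimulated replicate 1 (0.46, adjusted p = 0.231) or 3 (0.62, 0.1275), or CpG replicate 2 (0.47, 0.212) or 3 (0.53, 0.170).

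Pmvk, the kinase of the next step, differed in pattern, at 30, 28.9 and 27.4 CPM in Unstimulated, 31.3, 27.4 and 29.0 in IFNα, 19.6, 13.5 and 16.0 in CpG and 9.27, 12.1 and 13.9 in CpG + IFNα samples. All 6 samples with CpG lay below the other 6. It fell by 0.80 with CpG (SE 0.23, adjusted p = 0.00253) and fell by 1.28 with both (SE 0.23, adjusted p = 1.1e-05). Acat2, a thiolase at the start of the pathway with a similar neighbour, Acat3, to which reads could be split, had means of 16.3 ± 4.19 (SD, n = 3), 16.0 ± 3.97, 22.7 ± 6.27 and 13.0 ± 3.54 CPM. It fell by 0.85 in CpG + IFNα against CpG (SE 0.26, adjusted p = 0.0257), a call that was lost without CpG replicate 1 (−0.63, adjusted p = 0.207) or CpG + IFNα replicate 2 (−0.59, 0.231) and with DESeq2.

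Of the 9 enzymes tested from squalene to cholesterol, 7 rose with IFNα (12.4% of all genes) and 6 with CpG (36.5%), and 0 fell with either. Sqle, the squalene epoxidase, was at 24.6, 17.1 and 17.6 CPM in Unstimulated cells, 52.5, 48.6 and 57.2 with IFNα, 64.5, 56.3 and 71.9 with CpG and 60.0, 44.2 and 48.8 with both. Every stimulated sample lay above every Unstimulated one, and the 3 stimulated groups overlapped. It rose by 1.40 ± 0.21 with IFNα (adjusted p = 4.68e-06), 1.70 ± 0.20 with CpG (adjusted p = 5.09e-09) and 1.34 ± 0.20 with both (adjusted p = 5.59e-07), and the interaction was −1.76 ± 0.26 (adjusted p = 1.54e-05).

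Cyp51, the lanosterol demethylase, was at 15.5, 25.7 and 17.6 CPM in Unstimulated cells, 87.8, 60.8 and 69.4 with IFNα, 60.2, 64.2 and 59.9 with CpG and 52.4, 59.0 and 60.1 with both. All stimulated samples lay above the Unstimulated ones, and the samples with CpG and with both overlapped. CpG + IFNα differed from CpG by −0.10 ± 0.15 (adjusted p = 0.769). The log2 fold change was 1.88 ± 0.20 for IFNα (adjusted p = 6.09e-09) and 1.66 ± 0.20 for CpG (adjusted p = 1.07e-08), and the interaction was −1.98 ± 0.26 (adjusted p = 1.64e-06).

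Msmo1, which acts after Cyp51 to remove methyl groups, was at 28.2, 25.7 and 23.8 CPM in Unstimulated cells, 101, 93.0 and 83.9 with IFNα, 52.2, 46.3 and 49.4 with CpG and 38.2, 44.9 and 39.6 with both. The 4 groups did not overlap, in the order IFNα, CpG, CpG + IFNα and Unstimulated, although the difference between CpG and CpG + IFNα did not pass the test (−0.26 ± 0.15, adjusted p = 0.291). It rose by 1.83 ± 0.17 with IFNα (adjusted p = 2.23e-10) and 0.93 ± 0.18 with CpG (adjusted p = 3.44e-05), and the interaction was −2.09 ± 0.23 (adjusted p = 6.02e-08).

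Lss, lanosterol synthase, was at 17.3, 7.49 and 8.82 CPM in Unstimulated cells, 26.2, 27.4 and 24.4 with IFNα, 21.5, 21.4 and 23.0 with CpG and 21.3, 23.1 and 20 with both. It rose by 1.19 ± 0.28 with IFNα (adjusted p = 0.00146), with an interaction of −1.22 ± 0.35 (adjusted p = 0.0215) that was lost without Unstimulated replicate 3 (−0.98, adjusted p = 0.120). Sc5d, the sterol C5 desaturase, was at 26.4, 27.8 and 22.1 CPM in Unstimulated cells, 56.5, 54.1 and 44.3 with IFNα, 28.9, 38.5 and 38.4 with CpG and 34.9, 29.3 and 37.5 with both. For both genes, all 9 stimulated samples lay above the Unstimulated ones. Sc5d rose by 1.02 ± 0.20 with IFNα (adjusted p = 0.00022), with an interaction of −1.1 ± 0.27 (adjusted p = 0.0061). Its rise of 0.48 ± 0.21 with CpG (adjusted p = 0.0377) was lost without Unstimulated replicate 3 (0.36, adjusted p = 0.178) or CpG replicate 3 (0.43, 0.105).

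Hsd17b7, a ketosteroid reductase of the pathway, was at 7.28, 17.1 and 13.2 CPM in Unstimulated cells, 21.2, 15.2 and 17.6 with IFNα, 30.1, 23.5 and 32.9 with CpG and 18.5, 19.0 and 25.2 with both. Its mean was highest with CpG, where it rose by 1.24 ± 0.27 (adjusted p = 0.000154). Its interaction of −1.0 ± 0.37 (adjusted p = 0.0887) lost its call under 15 alternatives, and over all alternatives adjusted p ran from 0.0443 to 0.510.

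Ebp and Dhcr7, enzymes of the last steps, rose with IFNα but lay below Unstimulated cells with CpG + IFNα. Ebp was at 24.6, 40.6 and 38.8 CPM in Unstimulated cells, 49.4, 43.8 and 71.0 with IFNα, 28.9, 26.4 and 27.0 with CpG and 22.9, 24.1 and 22.6 with both. It rose by 0.66 ± 0.20 with IFNα (adjusted p = 0.0188), a call lost without IFNα replicate 3 (0.43, adjusted p = 0.194) or Unstimulated replicate 1 (0.46, 0.158). It fell by 0.56 with both stimuli (SE 0.22, adjusted p = 0.0197), a call lost without Unstimulated replicate 2 (−0.43, adjusted p = 0.121) or 3 (−0.44, 0.124). Its interaction of −0.89 ± 0.29 (adjusted p = 0.0464) was lost without IFNα replicate 3 (−0.66, adjusted p = 0.182) or Unstimulated replicate 1 (−0.70, 0.157).

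Dhcr7 was at 22.8, 20.3 and 19.4 CPM in Unstimulated cells, 34.3, 28.0 and 35.9 with IFNα, 16.6, 17.8 and 15 with CpG and 14.7, 9.31 and 10.3 with both, 4 groups that did not overlap. It rose by 0.63 ± 0.23 with IFNα (adjusted p = 0.0516) and fell by 0.89 with both (SE 0.26, adjusted p = 0.00237), and the interaction was −1.18 ± 0.34 (adjusted p = 0.0217). The IFNα call was lost under 7 alternatives, and over all alternatives adjusted p ran from 0.0313 to 0.209. Nsdhl, another enzyme of sterol demethylation, had means of 14.7 ± 8.29, 18.3 ± 4.60, 12.3 ± 1.65 and 12.0 ± 0.738 CPM (SD, n = 3) in the order of the groups above, and did not pass the test in any comparison with Unstimulated cells. It fell by 0.60 in CpG + IFNα against IFNα (SE 0.29, adjusted p = 0.0625). That call was lost without replicate 1 or 2 of IFNα (−0.49, adjusted p = 0.173, and −0.46, 0.237) or of CpG + IFNα (−0.56, 0.121, and −0.56, 0.135).

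**Figure D2:**
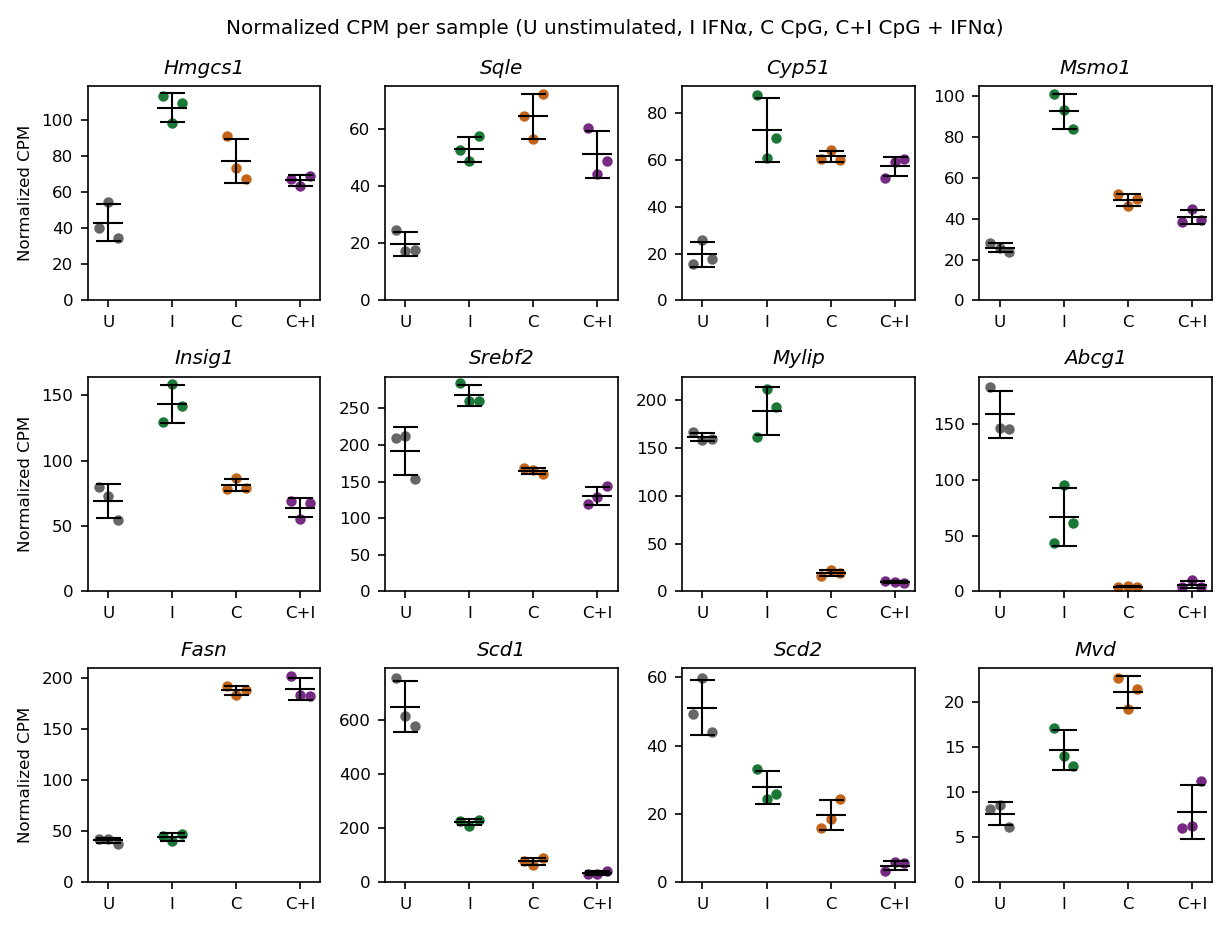
Points give normalized CPM in each of the 3 samples of a group and bars the mean ± SD, for 12 of the genes on linear axes that start at 0. Hmgcs1, Cyp51, Msmo1 and Insig1 peaked under IFNα, Mvd peaked under CpG and was at 6.0 to 11.3 CPM under both stimuli, and Scd2 was lowest under both stimuli in all 3 samples.

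The interaction restates these patterns in a single test per gene. It was below 0 in all 15 cholesterol synthesis genes under every scaling that was tried, and changed in 12 of them, 10 as DEGs, beside 7.58% of all genes changed and 3.17% DEGs in that direction. With DESeq2, 8 of the 15 were called, and Lss, Hsd17b7, Ebp and Dhcr7 were not. Acat2 at −0.81 ± 0.41 (adjusted p = 0.227), Pmvk at −0.49 ± 0.32 (adjusted p = 0.385) and Nsdhl at −0.39 ± 0.44 (adjusted p = 0.665) were the 3 that did not pass. CpG + IFNα against IFNα gave 11 of the 15 lower and 0 higher (39.8% and 36.1% of all genes), with a median of −0.68.

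**Figure D3:**
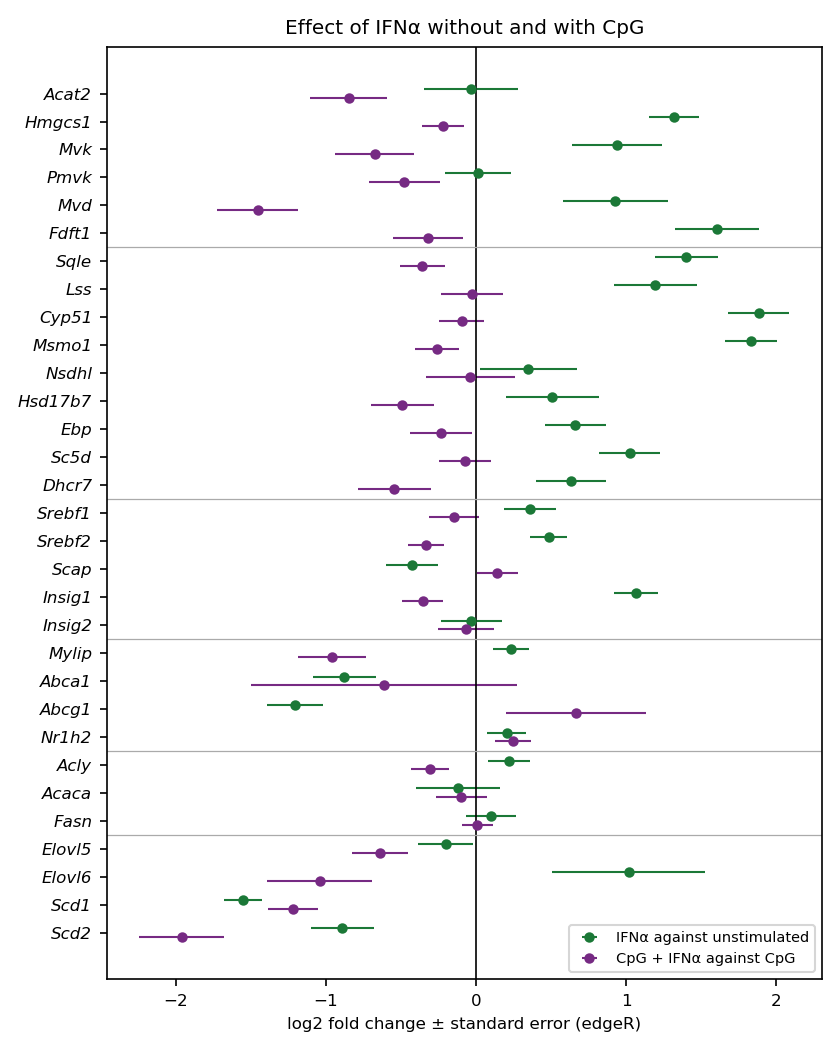
Points give the log2 fold change of each of the 31 tested genes for IFNα against Unstimulated (green) and for CpG + IFNα against CpG (purple), and bars the standard error of the edgeR fit. For cholesterol synthesis genes, from Acat2 to Dhcr7, the green points reach 1.88 at Cyp51 and the purple points all lie below 0, whereas both points lie below 0 for Scd1 and Scd2.

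Among the 5 genes of SREBP control, 2 rose and 1 fell with IFNα (12.4% and 11.9% of all genes), and 1 rose with CpG (36.5%). With both stimuli, 1 rose and 3 fell (37.6% and 38.8%). Insig1, itself a target of SREBP that retains SCAP, was at 80.1, 72.7 and 54.7 CPM in Unstimulated cells, 129, 159 and 142 with IFNα, 78.6, 87.0 and 78.9 with CpG and 69.3, 55.5 and 67.3 with both. The IFNα samples lay above all 9 others. It rose by 1.06 ± 0.15 with IFNα (adjusted p = 7.61e-07), and CpG differed from Unstimulated by 0.24 ± 0.15 (adjusted p = 0.163). CpG + IFNα lay below CpG in all samples (−0.36 ± 0.14, adjusted p = 0.0969), a call lost under 14 alternatives with adjusted p up to 0.572, and the interaction was −1.42 ± 0.20 (adjusted p = 8.23e-06).

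Srebf2, the gene of the SREBP that chiefly drives cholesterol synthesis, was at 209, 212 and 154 CPM in Unstimulated cells, 285, 259.6 and 259 with IFNα, 168, 165 and 161 with CpG and 119, 129 and 144 with both. The IFNα samples were the highest and the CpG + IFNα samples the lowest, with no overlap between them and any other group. It rose by 0.48 ± 0.12 with IFNα (adjusted p = 0.00375, lost without Unstimulated replicate 3 at 0.32, adjusted p = 0.106) and fell by 0.55 with both (SE 0.12, adjusted p = 0.000235). The interaction was −0.82 ± 0.17 (adjusted p = 0.00157). Its fall of 0.33 in CpG + IFNα against CpG (SE 0.12, adjusted p = 0.0721) lost its call under 12 alternatives, with adjusted p up to 0.352.

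Scap was at 58.2, 74.9 and 48.5 CPM in Unstimulated cells, 46.4, 45.6 and 42.0 with IFNα, 77.4, 74.1 and 70.4 with CpG and 73.1, 81.4 and 89.9 with both. It was lowest with IFNα, and the samples with CpG overlapped the Unstimulated ones. The log2 fold change was −0.43 ± 0.17 for IFNα (adjusted p = 0.0823) and 0.30 ± 0.16 for CpG (adjusted p = 0.0844), 2 calls that were lost when single libraries of either group were left out, with adjusted p up to 0.409 without Unstimulated replicate 2 for IFNα and 0.486 without Unstimulated replicate 3 for CpG. CpG + IFNα was above IFNα by 0.87 ± 0.15 (adjusted p = 6.09e-06).

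Srebf1, the gene of the SREBP more linked to fatty acid genes, had means of 47.7 ± 6.07, 60.8 ± 8.22, 41.0 ± 5.63 and 36.2 ± 4.31 CPM (SD, n = 3) in Unstimulated, IFNα, CpG and CpG + IFNα samples. The difference was 0.36 ± 0.17 for IFNα (adjusted p = 0.152), −0.24 ± 0.18 for CpG (adjusted p = 0.227) and −0.75 ± 0.16 for CpG + IFNα against IFNα (adjusted p = 0.000113). It fell by 0.39 with both stimuli (SE 0.17, adjusted p = 0.0465), a call lost under 5 alternatives with adjusted p up to 0.292. Insig2, which also retains SCAP and is not induced by SREBP, was at 28.2, 26.7 and 32.7 CPM in Unstimulated cells, 29.3, 26.8 and 30.5 with IFNα, 20.9, 24.2 and 24.96 with CpG and 21.8, 23.8 and 21.1 with both. The 6 samples with CpG lay below the 6 without it. The difference was −0.03 ± 0.20 for IFNα (adjusted p = 0.944), −0.32 ± 0.20 for CpG (adjusted p = 0.152), −0.06 ± 0.19 for CpG + IFNα against CpG (adjusted p = 0.893) and −0.03 ± 0.28 for the interaction (adjusted p = 0.976). It fell by 0.39 with both stimuli (SE 0.20, adjusted p = 0.0749) and fell by 0.36 in CpG + IFNα against IFNα (SE 0.19, adjusted p = 0.0881), calls lost under 10 and 18 alternatives.

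Both efflux genes and Mylip fell with CpG, and the efflux genes also fell with IFNα. Abcg1, a cholesterol exporter, was at 183, 147 and 146 CPM in Unstimulated cells, 43.4, 94.9 and 61.0 with IFNα, 3.68, 4.99 and 3.99 with CpG and 4.36, 10.0 and 4.11 with both. Unstimulated, IFNα and the 6 samples with CpG formed 3 levels without overlap. It fell by 1.20 with IFNα (SE 0.19, adjusted p = 6.46e-06) and fell by 5.22 with CpG (SE 0.28, adjusted p = 5.11e-17). Its interaction was 1.87 ± 0.49 (adjusted p = 0.012), the only one above 0 among the 19 members changed, and was lost without CpG + IFNα replicate 2 (1.22, adjusted p = 0.234) and with counts thinned to the lowest depth.

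Abca1, the exporter that loads lipid onto apolipoproteins, was at 75.5, 52.4 and 61.8 CPM in Unstimulated cells and 30.3, 43.2 and 28.2 with IFNα. It had 3, 0 and 3 counts in the CpG samples and 1, 2 and 2 in the CpG + IFNα samples, at or under the limit of 3 counts, so that no fold is given between those groups. Summed counts, scaled by normalized library size, gave a ratio of Unstimulated to CpG of 53.5 (exact 95% interval 24.2 to 148) and of Unstimulated to CpG + IFNα of 85.2 (35.9 to 265), intervals that cover counting error only. With IFNα it fell by 0.88 (SE 0.21, adjusted p = 0.00208).

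Mylip, the ubiquitin ligase induced by LXR, was at 167, 158 and 159.7 CPM in Unstimulated cells, 161, 212 and 192 with IFNα, 16.6, 22.1 and 19.5 with CpG and 10.4, 10.3 and 8.74 with both. CpG + IFNα lay below CpG, and both lay far below the other 2 groups. It fell by 3.06 with CpG (SE 0.16, adjusted p = 1.31e-17), fell by 0.96 in CpG + IFNα against CpG (SE 0.23, adjusted p = 0.00281), and its interaction was −1.19 ± 0.26 (adjusted p = 0.00177). Nr1h2, the gene of LXRβ, had means of 99.3 ± 11.0, 114 ± 0.453, 88.3 ± 10.5 and 105 ± 3.46 CPM (SD, n = 3) and passed the test in none of the 6 comparisons.

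Macrophage markers, whose cells express Abca1 and Abcg1 strongly, were also highest in Unstimulated samples, at the sums given above. Lyz2 and C1qa were highest in Unstimulated replicate 2, at 9 and 11 counts, the replicate with the lowest Abca1 of the 3, at 52.4 CPM. The part of such cells in the difference was not tested.

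Of the 3 genes of fatty acid synthesis, 2 rose with CpG (36.5% of all genes) and 0 were called with IFNα, where the unadjusted p was above 0.05 for all 3. Fasn, the fatty acid synthase, was at 42.8, 42.8 and 37.9 CPM in Unstimulated cells, 45.4, 40.1 and 47.3 with IFNα, 192, 183 and 189 with CpG and 202, 184 and 183 with both. The 6 samples with CpG lay far above the other 6 and overlapped each other. It rose by 2.19 ± 0.14 with CpG (adjusted p = 1.31e-15), and differed by 0.10 ± 0.17 with IFNα (adjusted p = 0.753) and by 0.01 ± 0.10 in CpG + IFNα against CpG (adjusted p = 0.992).

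Acaca, acetyl-CoA carboxylase 1, which makes the malonyl-CoA that Fasn uses, was at 14.6, 15 and 17.6 CPM in Unstimulated cells, 18.2, 13.4 and 13.0 with IFNα, 35.0, 44.9 and 35.4 with CpG and 29.5, 39.7 and 36.5 with both. It rose by 1.27 ± 0.23 with CpG (adjusted p = 8.85e-06), and CpG + IFNα differed from CpG by −0.10 ± 0.17 (adjusted p = 0.805). As for Fasn, the samples fell into those with and those without CpG.

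Acly, ATP citrate lyase, which supplies cytosolic acetyl-CoA to both pathways, varied least of the 3, at 84.6, 113 and 104 CPM in Unstimulated cells, 127, 100.3 and 126 with IFNα, 98.8, 106 and 109 with CpG and 82.9, 79.0 and 93.0 with both. It was not called against Unstimulated cells in any group, but its difference of −0.24 with both stimuli (SE 0.14, adjusted p = 0.105) was called under 7 alternatives, among them the replicate block, with adjusted p down to 0.0431. CpG + IFNα was below IFNα by 0.46 on the log2 scale (SE 0.13, adjusted p = 0.00198), and the interaction of −0.52 ± 0.19 (adjusted p = 0.0762) lost its call under 14 alternatives, with adjusted p up to 0.571.

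The stearoyl-CoA desaturases Scd1 and Scd2 fell with each stimulus and were lowest with both. Scd1, which makes monounsaturated fatty acids, was at 755, 613 and 578 CPM in Unstimulated cells, 225, 209.8 and 231 with IFNα, 78.0, 64.2 and 90.9 with CpG and 30, 29.3 and 42.7 with both, 4 levels without overlap. It fell by 1.55 with IFNα (SE 0.13, adjusted p = 1.03e-11), fell by 3.05 with CpG (SE 0.14, adjusted p = 5.83e-19) and fell by 4.27 with both (SE 0.15, adjusted p = 5.42e-22). The fall in CpG + IFNα against CpG was 1.22 (SE 0.17, adjusted p = 1.02e-06), and the interaction did not pass the test (0.33 ± 0.21, adjusted p = 0.37).

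Scd2, a second desaturase, lies beside Scd1 on chromosome 19 (44293674 to 44306864 and 44394455 to 44407879 on GRCm38), and reads could be split between similar copies. It was at 49.1, 59.9 and 44.1 CPM in Unstimulated cells, 33.3, 24.3 and 25.9 with IFNα, 16.0, 18.5 and 24.5 with CpG and 3.27, 5.86 and 5.65 with both. CpG + IFNα lay below every other sample, whereas IFNα and CpG overlapped at 24.3 to 24.5 CPM. Scd2 had the largest fall of the 31 genes in CpG + IFNα against CpG, 1.96 (SE 0.28, adjusted p = 2.7e-06), after falls of 0.89 with IFNα (SE 0.21, adjusted p = 0.00196) and 1.34 with CpG (SE 0.21, adjusted p = 1.28e-06). Its interaction of −1.07 ± 0.36 (adjusted p = 0.0557) lost its call under 7 alternatives, with adjusted p up to 0.352.

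Elovl5, an elongase of polyunsaturated fatty acids, was at 43.7, 42.8 and 57.4 CPM in Unstimulated cells, 45.4, 35.3 and 46.6 with IFNα, 29.5, 31.4 and 29.5 with CpG and 20.2, 17.6 and 20.6 with both. It stepped down with CpG (−0.68 ± 0.18, adjusted p = 0.00146) and again in CpG + IFNα against CpG (−0.64 ± 0.19, adjusted p = 0.0222), a call lost without CpG + IFNα replicate 2 (−0.56, adjusted p = 0.125) and with DESeq2.

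Elovl6, an elongase of saturated fatty acids, was measured at low levels of 3.64, 2.14 and 4.41 CPM in Unstimulated cells, 8.07, 7.90 and 5.34 with IFNα, 11.1, 10.7 and 10.5 with CpG and 6.0, 3.10 and 7.19 with both. It was highest with CpG and overlapped Unstimulated cells with both stimuli. It rose by 1.61 ± 0.45 with CpG (adjusted p = 0.00207) and fell by 1.04 in CpG + IFNα against CpG (SE 0.35, adjusted p = 0.0467), and its interaction was −2.06 ± 0.61 (adjusted p = 0.0272). The call against CpG was lost without any 1 of the 3 CpG replicates (−1.06 to −1.02, adjusted p = 0.103 to 0.125) or without CpG + IFNα replicate 2 (−0.69, adjusted p = 0.325), and with DESeq2 both this call and the interaction were lost.

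The other 5 genes had too few counts to be tested. Idi1, the isopentenyl diphosphate isomerase, had 1, 1 and 0 counts in Unstimulated cells, 2, 2 and 2 with IFNα, 5, 8 and 10 with CpG and 10, 12 and 7 with both. Fdps, farnesyl diphosphate synthase, had 1, 3 and 1, then 8, 16 and 3, 8, 4 and 6, and 6, 11 and 6 counts in the same order. Tm7sf2, a sterol reductase, had 4, 5 and 2, then 7, 10 and 10, 0, 0 and 4, and 1, 6 and 3. Fads1, a polyunsaturated fatty acid desaturase, ranged from 0 to 7 counts, and its relative Fads2 had 1 count in CpG + IFNα replicate 2 and 0 in the other 11 samples.

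Counts of other lipid pathways under CpG are to be read against 36.5% of all genes that rose and 38.4% that fell, shares near those of several lists. In CpG against Unstimulated, isoprenoid genes that branch from cholesterol synthesis rose in 8 of 13 and fell in 1, with Rabggtb of Rab prenylation at 1.66 ± 0.13 (adjusted p = 5.88e-13), Nus1 of dolichol synthesis at 1.21 ± 0.13 (adjusted p = 4.95e-10) and Ggps1, geranylgeranyl diphosphate synthase, at −0.91 ± 0.17 (adjusted p = 1.94e-05). Genes of sterol sensing and SREBP processing rose in 1 of 10 (Erlin2, 1.03) and fell in 2 (Rnf145, −1.44, and Erlin1, −0.62). Genes of sterol storage and transport fell in 11 of 15 and rose in 2, with Apoe, an apolipoprotein, at −5.08 ± 0.19 (adjusted p = 4.21e-21) and Gramd1a, a sterol transporter, at −2.49 ± 0.17 (adjusted p = 2.19e-14), but Scarb1, a lipoprotein receptor, at 2.08 ± 0.28 (adjusted p = 7.01e-08) and Lpcat3 at 0.52 ± 0.25 (adjusted p = 0.068).

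For Apoe, Unstimulated cells had 193, 217 and 223 CPM, IFNα 1214, 1098 and 1122, CpG 7.37, 6.42 and 4.99 and CpG + IFNα 6.0, 8.62 and 5.65. Apoe thus rose with IFNα (2.44 on the log2 scale) in the samples where Abca1 and Abcg1 fell. Genes of fatty acid activation and elongation rose in 8 of 16 with CpG (Hacd3, 2.84 and Hsd17b12, 1.22, of the elongation cycle) and fell in 4 (Acss1, −4.49, and Tecr, −1.23). Fatty acid oxidation genes rose in 3 of 19 (Eci1, 1.03, and Etfa, 0.96) and fell in 7 (Acaa2, −2.03, and Cpt1a, the entry step into mitochondria with 0, 3 and 6 counts under CpG, −5.12). Glycerolipid synthesis genes rose in 6 of 21 (Agpat5, 2.68, and Pisd, 1.38) and fell in 8 (Chkb, −2.58, and Chka, −1.52), again beside 36.5% and 38.4% of all genes.

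In CpG + IFNα against CpG, fatty acid oxidation genes fell in 6 of 19 (3 with DESeq2) and rose in 0, beside 8.83% of all genes that fell, with a list median of −0.46 beside −0.038 over all genes. Hadh, a dehydrogenase of the cycle, was at 21.5, 17.8 and 22.0 CPM with CpG and 3.27, 6.55 and 8.22 with both, and fell by 1.74 (SE 0.29, adjusted p = 4.16e-05), and Eci1 fell by 0.61 (SE 0.13, adjusted p = 0.000922). Nceh1, which frees cholesterol from its esters, rose by 1.71 ± 0.17 (adjusted p = 2.36e-09) from 20.3, 17.8 and 20.5 to 57.3, 72.8 and 61.7 CPM. Npc2, which exports lysosomal cholesterol, rose by 1.08 ± 0.13 (adjusted p = 1.38e-07), and Soat1, which makes cholesterol esters, fell by 0.78 (SE 0.21, adjusted p = 0.0103).

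Genes of fatty acid activation and elongation rose in 1 of 16 (Hacd3, 0.45) and fell in 3 (Mid1ip1, −0.75, and Tecr, −0.73), and glycerolipid genes fell in 1 of 21 (Agpat3, −0.46), beside 6.54% and 8.83% of all genes. The isoprenoid and the sterol sensing lists had 0 of 13 and 0 of 10 changed by edgeR and by DESeq2, with 1 and 0 at an unadjusted p under 0.05.

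**Figure D4:**
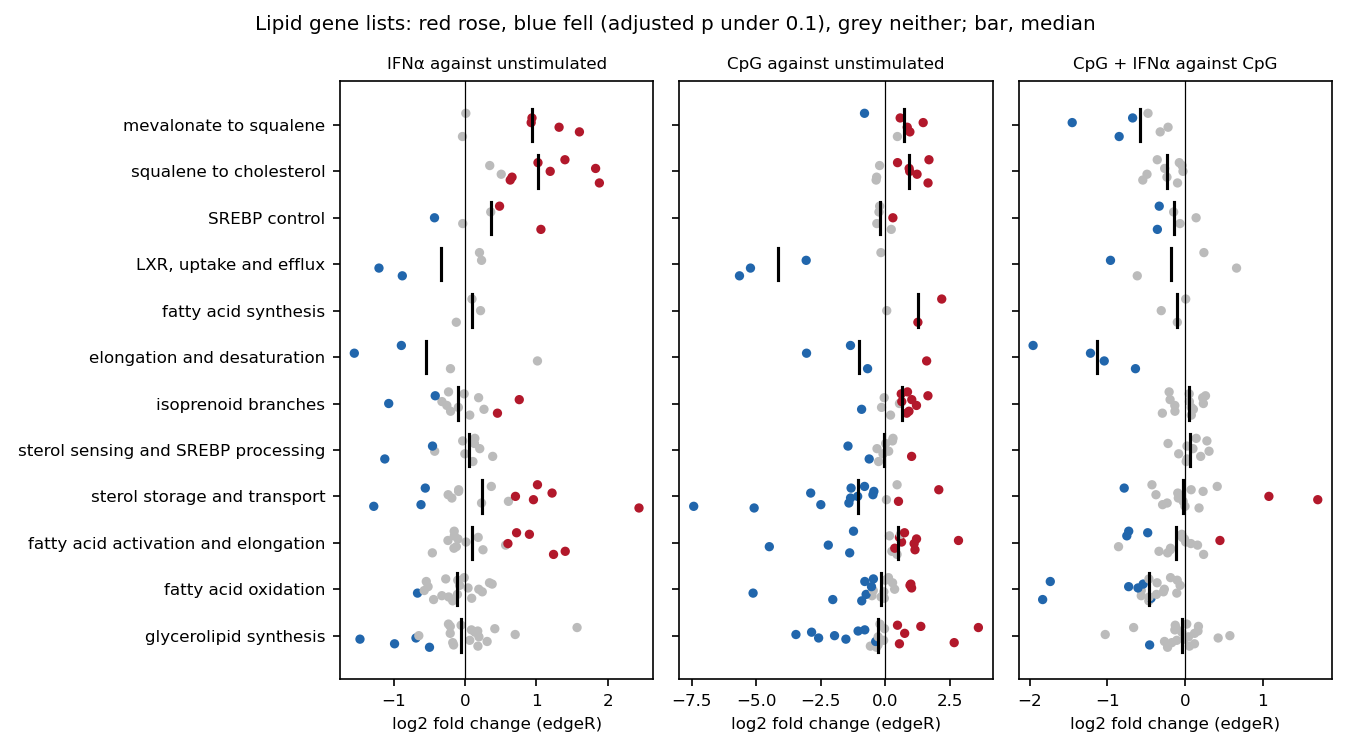
Points give log2 fold changes of the tested genes of 6 groups of members (top) and 6 other lipid lists (bottom) in 3 comparisons, in red or blue where adjusted p was under 0.1 and grey otherwise, with a bar at the list median and separate horizontal scales. The lowest point of sterol storage and transport under CpG is Cyp27a1, which had 0 counts in all 6 samples with CpG, so that its fitted value depends on the prior count. The medians of both cholesterol synthesis groups lie to the right of 0 under IFNα and CpG and to its left in CpG + IFNα against CpG.

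Several genes overlap others on GRCm38. Fdft1 overlaps Ctsb, Cyp51 overlaps Akap9, Srebf1 overlaps Rai1, Mvd overlaps Gm20388 and Acaca overlaps Gm11437 on the opposite strand, and Hmgcs1, Lss and Elovl6 have antisense genes. Whether counting used the strand is not given in the sources used here, so that reads of these genes and their partners may not be told apart.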

How the data were processed

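RNA from 12 samples of sorted FO B cells was made into 3′ end libraries with unique molecular identifiers (UMIs) by BRB-seq. The authors deposited unnormalized UMI counts per gene. Per the labels and the methods of the study, UMI-tools 1.1.2, Trim Galore 0.6.7, HISAT2 2.2.1 and featureCounts 2.0.1 were used on GRCm38. The release of the annotation is not given in the sources used here, and all 22561 gene identifiers were found in GENCODE M21, which gave positions.

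TMM factors were computed on the deposited counts (edgeR 4.0.16, R 4.3.3), and filterByExpr by group kept 9431 genes. All 12 samples were fitted together with glmQLFit (8 residual degrees of freedom) and tested with glmQLFTest, where SE is the log2 fold change divided by the root of its F statistic. Changed meant an adjusted p under 0.1, and DEG also a log2 fold change over 1 in size. The code was tested on simulated data. Depth sets the precision, and UMI intervals cover counting error only.

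The rule for members uses gene names and roles alone, but the members, the lists of other pathways and markers, and the tests were chosen with earlier results of these data known. Every member was named. Values in each sample were given for DEGs of CpG + IFNα against CpG, for genes with a changed interaction, and for the 3 genes per role with the smallest p in CpG against Unstimulated. From other lists, up to 2 genes per direction with the smallest p in CpG against Unstimulated and in CpG + IFNα against CpG were named among changed genes. Apoe under IFNα and Cyp27a1 were chosen after their values were seen. Alternatives were other scalings and filters, DESeq2 1.42.0, other fold thresholds, a block for the replicate number, fits without the groups outside a comparison, thinning of counts to the lowest depth, removal of ribosomal RNA and mitochondrial genes, and leaving out single samples. The summed levels of the B cell and follicular B cell markers are not reported here.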

Additional observations from a re-analysis of the deposited data

Results flagged for a closer look

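The interaction passed edgeR's test in 19 of the 31 tested genes at an adjusted p under 0.1. Over all genes, the shares that passed were 5.84% above 0 and 7.58% below. The IFNα effect without CpG is taken against Unstimulated cells, so that time in culture cannot be told apart from stimulation in it. With DESeq2, 1 member was above 0 and 11 were below. The interaction, on the log2 scale, was below 0 in the cholesterol synthesis genes Hmgcs1 (−1.54), Mvk (−1.61), Mvd (−2.38), Fdft1 (−1.92), Sqle (−1.76), Lss (−1.22), Cyp51 (−1.98), Msmo1 (−2.09), Hsd17b7 (−1.0), Ebp (−0.89), Sc5d (−1.1) and Dhcr7 (−1.18). It was also below 0 in Srebf2 (−0.82), Insig1 (−1.42), Mylip (−1.19), Acly (−0.52), Elovl6 (−2.06) and Scd2 (−1.07). It was above 0 in Abcg1 (1.87), whose level was 3.68 to 4.99 CPM in the CpG samples.

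Single samples that stand apart were not tested for, since each group has 3 samples.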

How the results depend on the processing

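Alternatives that did not test a gene, or gave it no adjusted p, were left out for that gene. Among the others, none of the 116 changed values of members turned direction, and 79 of them kept their call in all. By comparison these were 12 of 18 for IFNα, 17 of 21 for CpG and 15 of 23 for CpG + IFNα against Unstimulated, 3 of 10 for CpG + IFNα against CpG, 21 of 25 for CpG + IFNα against IFNα and 11 of 19 for the interaction. DESeq2 lost 27 calls and drawing counts down to the smallest total lost 31, the latter leaving less depth.

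DEG counts among members moved by over 1.5 times as follows. With no fold threshold, 13 rose and 5 fell with IFNα, 14 rose with CpG, 11 rose and 12 fell with CpG + IFNα, 10 fell against CpG and 22 fell against IFNα. With a log2 fold change over 2, 0 rose and 0 fell with IFNα, 1 rose with CpG, 1 rose with CpG + IFNα, 0 fell against CpG, 1 rose and 5 fell against IFNα, and the interaction had 0 above and 3 below 0. Counts drawn down left 2 that fell against CpG and 0 interactions above 0.

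Leaving out each sample in turn gave 5 to 11 rises and 2 to 3 falls with IFNα (5 without Unstimulated replicate 3), 7 to 9 and 5 to 6 with CpG, 4 to 6 and 7 to 8 with CpG + IFNα, 0 to 0 and 3 to 4 against CpG, and 2 to 2 and 11 to 14 against IFNα. The interaction had 0 to 1 above 0 (0 without CpG + IFNα replicate 2) and 11 to 17 below 0.

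Samples of different groups with the same replicate number correlated in their deviations from group means at −0.065 to 0.205 (median 0.037), above 0.1 in 5 of 18 pairs. A deposited barcode list names the libraries of each condition WT1 to WT3 without saying whether a number marks 1 mouse. The numbers were not taken as a pairing, although the 9 same-number pairs among stimulated groups were all above 0 (0.009 to 0.205). Hbb-bs, a hemoglobin gene, was highest in replicate 1 and lowest in replicate 3 of every group, for example at 242, 94 and 36 counts in Unstimulated cells. With the replicate number as a block, DEG counts were 8 up and 2 down with IFNα and 0 up and 4 down against CpG, as without the block. The block lost 1 call, Insig2 in CpG + IFNα against IFNα, and added 1 rise with CpG (Acat2), 1 fall with CpG + IFNα (Acly) and 1 interaction above 0 (Scap).

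Scaling moved the median of all genes by at most 0.082 in size on the log2 scale.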
